A study of Osmia excavata with 6 samples.

Results

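Aquaporins are membrane proteins of the major intrinsic protein (MIP) family that form pores through which water crosses cell membranes along osmotic gradients. Some members, the aquaglyceroporins, also pass glycerol and other small uncharged molecules. In insects they are known from the Malpighian tubules, the excretory organs that secrete the primary urine, and from the gut and other epithelia, and they take part in water balance under desiccation and in the concentration of body fluids. The aquaporin genes described here are those rows of the expression table whose description ends with a bee genus and whose description or Swiss-Prot match names an aquaporin. Members were to be selected on the mean of their levels over the 6 libraries, with at most the 10 highest kept. As 8 of the 37061 genes in the table matched, no gene was dropped for its level, and there is none just outside the limit.

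RNA was sequenced from the solitary mason bee Osmia excavata in 2 groups, 3 libraries of bees treated by water immersion and 3 control libraries. The study asks how wetting the cocoons helps the adult bees to leave them, and the immersed samples are titled as a decocooning group, so an effect of wetting cannot be told apart from one of emergence. Both groups share the same RNA isolation with TRIzol and the same oligo(dT) selection. The labels put the species name in the tissue field, and no strain, sex, age, organ or sampling time stands in the sources used here. They do not say whether the libraries come from separate or pooled animals, so p-values measure only the spread between these libraries, which may be technical. Because the libraries are bulk RNA with no named tissue, fewer cells of a type and less RNA per cell cannot be told apart.

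The libraries held between 17755830 and 18666554 estimated counts after immersion and between 16765886 and 19953734 in controls. Of these, the aquaporin genes took 19333 to 22167 counts after immersion and 17480 to 20454 in controls. The libraries did not hold bee transcripts alone. Genes matching the nematode Caenorhabditis reached 14050 to 14980 CPM (counts scaled to a fixed library total) after immersion, 3464 CPM in control 1, and 0.908 and 0.209 CPM in controls 2 and 3. Controls 2 and 3 therefore stand apart from the other 4 libraries. Results of the aquaporin genes that turn on them are also given against control 1 alone or without single controls. For single genes of the other lists this was not done. Genes whose description names a Hymenoptera genus, 11315 in all, held 92.6% to 92.8% of the counts after immersion and 92.9% to 94.5% in controls.

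The annotation carries the family name in more than the description for most of the 8 genes. A Pfam match to the MIP domain is listed for 7 of them, and the gene ontology (GO) term for water channel activity for 6. The GO term for glycerol channel activity stands beside 3. The exception to the Pfam match is TRINITY_DN21413_c0_g1 (hereafter DN21413), described as AQPAn.G-like in the carpenter bee Ceratina calcarata. It has no listed MIP domain in an assembled length of 2761 bases. A Swiss-Prot match is missing for it and also for TRINITY_DN2319_c0_g1 and TRINITY_DN9734_c0_g2. The shortest, TRINITY_DN9734_c0_g2, is a fragment of 296 bases that matches an aquaporin of the bee Dufourea novaeangliae. It belongs to the same assembly component as the much longer TRINITY_DN9734_c0_g1, so reads of 1 gene may be divided between both. The number of assembled transcripts per gene ran from 1 in that fragment to 29 in DN21413.

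Levels are given as TPM, a unit that corrects for length and library size and so can be compared between genes. TRINITY_DN7533_c0_g2 (DN7533), an AQPAe.a-like aquaporin by its match to the leafcutter bee Megachile rotundata, was the most abundant in all 6 libraries. It had 353.68, 358.58 and 306.85 TPM in immersion libraries 1, 2 and 3, against 332.33, 443.64 and 518.11 TPM in controls 1, 2 and 3. Control 1 lay among the immersion libraries while controls 2 and 3 lay above all of them, so the groups overlapped. The mean over all libraries, 385.5 TPM, was above that of 97.2% of the Hymenoptera genes. Its listed GO terms cover both water and glycerol channel activity.

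TRINITY_DN10708_c0_g2 (DN10708), whose closest Swiss-Prot entry is the aquaporin AQPAn.G of the malaria mosquito Anopheles gambiae, was the next most abundant. It had 154.04, 147.6 and 154.84 TPM after immersion, against 127.59, 172.98 and 232.24 TPM in controls. The immersion libraries were nearly level with each other and fell between control 1 and control 2. DN9734_c0_g1 has the same Swiss-Prot match and stood behind DN2100 (described next), with 89.12, 85.41 and 84.92 TPM after immersion, against 101.47, 96.28 and 98.61 TPM in controls. Here every immersion library lay below every control, by a small margin. An exact two-sided permutation test on these TPM gave p = 0.1, the smallest that 3 against 3 libraries allow.

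TRINITY_DN2100_c1_g1 (DN2100), matched to AQPAe.a of the yellow fever mosquito Aedes aegypti, stood between these, with 97.91, 114.56 and 120.49 TPM after immersion, against 119.99, 154.71 and 102.25 TPM in controls. The groups overlapped, with control 2 above all other libraries. TRINITY_DN10160_c0_g1 (DN10160) is described as an aquaporin-2 of the stingless bee Melipona quadrifasciata, and its Swiss-Prot match is AQPcic, the water channel of the leafhopper Cicadella viridis, which lies in the filter chamber of the gut where excess water of the sap diet is shunted away. It had 44.51, 34.64 and 42.21 TPM after immersion, against 47.06, 68.19 and 84.54 TPM in controls. All 3 immersion libraries lay below all 3 controls, with control 1 close above them.

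The remaining genes were less abundant. TRINITY_DN2319_c0_g1 (DN2319) is described as aquaporin-11, a divergent branch of the family that in mammals resides in the membrane of the endoplasmic reticulum. It had 25.2, 13.61 and 28.08 TPM after immersion, against 31.79, 31.41 and 18.12 TPM in controls, and the groups overlapped. DN21413 averaged 9.98 ± 1.24 TPM after immersion and 10.3 ± 2.11 TPM in controls (SD, n = 3 each). The fragment DN9734_c0_g2 rested on at most 9.82 counts in any library and had 5.29 to 9.58 TPM after immersion, against 1.28 to 8.16 TPM in controls.

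**Figure D1:**
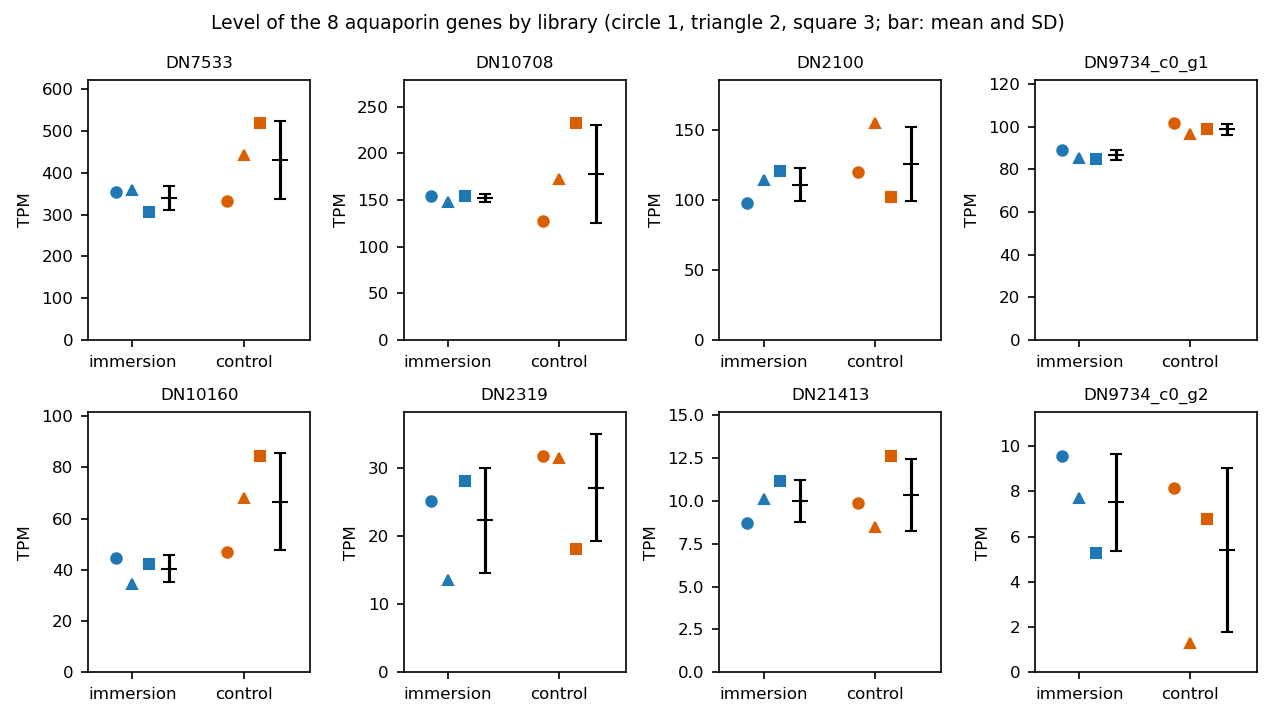
TPM (y axis, from 0) of each of the 8 aquaporin genes in the 3 immersion libraries (blue) and the 3 control libraries (orange), with the mean and SD of each group in black. Controls 2 and 3 hold the highest values of DN7533, DN10708 and DN10160, and the groups are apart without overlap in DN10160 and DN9734_c0_g1.

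The first 6 genes kept 1 order of level in all 6 libraries. Neighbours in that order were not always apart beyond their spread, since DN10708 and DN2100 in control 1 stood at 127.59 and 119.99 TPM, and DN2100 and DN9734_c0_g1 in control 3 at 102.25 and 98.61 TPM. The sum over the 8 genes was 769.6 ± 14.6 TPM after immersion and 942.8 ± 150.4 TPM in controls (SD, n = 3 each). The summed level overlapped between the groups, with 753.82 to 782.71 TPM after immersion against 778.28, 976.96 and 1073.3 TPM in controls 1, 2 and 3. DN7533 made up 40.7% to 46.4% of the sum after immersion and 42.7% to 48.3% in controls. DN10160 was the member whose share did not overlap, with 5.26% ± 0.67 after immersion and 6.97% ± 0.915 in controls (SD, n = 3 each).

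**Figure D2:**
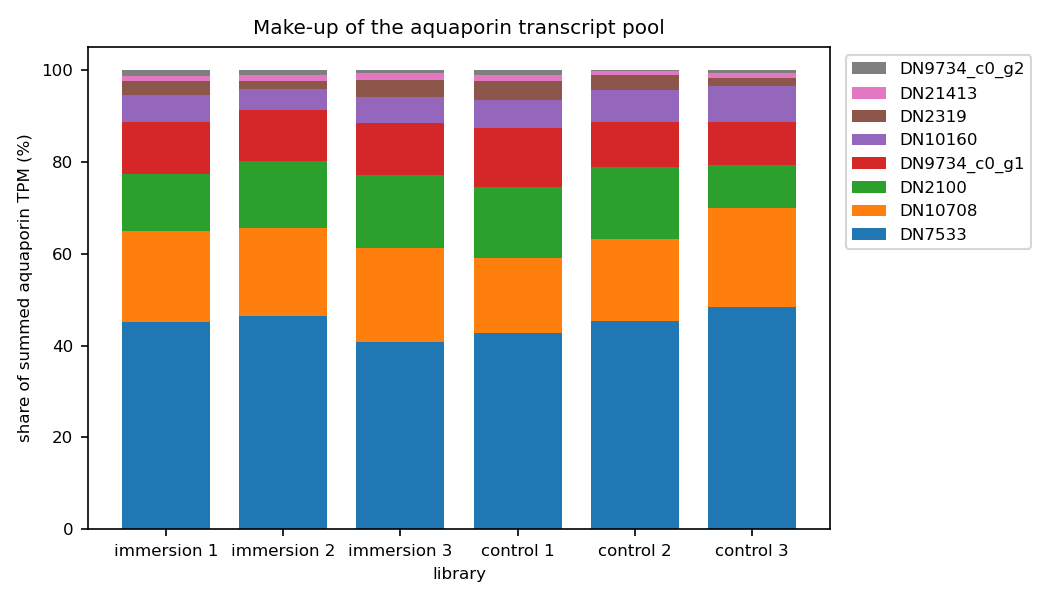
Share of the summed aquaporin TPM (y axis, percent) held by each of the 8 genes in each library (x axis, immersion left and control right). DN7533 is the largest segment in every library, at 40.7% to 48.3%, and the segment of DN2100 is smallest in control 3, at 9.53%.

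The question of the design is which transcripts differ with immersion. Of the 7 aquaporin genes that could be tested, the AQPcic-like DN10160 differed most, at 0.634 of its control level after immersion, the other 6 had ratios of 0.824 to 1.12, and 0 passed the test across all genes. The test was run on the estimated counts with edgeR's quasi-likelihood test across all 17998 genes that passed the filter on low counts, with Benjamini-Hochberg adjustment. Of the 8 aquaporin genes 7 passed the filter, and the fragment DN9734_c0_g2 did not. None of the 7 tested genes (0) had an adjusted p under 0.05, as was the case for 0% of all tested genes. At an unadjusted p under 0.05 there was 1 member, DN10160, against 22.5% of all tested genes and 27.7% of the 9250 tested Hymenoptera genes. DN10160 was also the 1 member whose groups did not overlap in normalised CPM (CPM scaled by edgeR's TMM factors), against 47.6% of all tested genes and 46.0% of the Hymenoptera genes. In TPM the groups did not overlap in DN10160 and DN9734_c0_g1, against 44.6% of the tested Hymenoptera genes. These shares of the aquaporin genes were not above the background. DESeq2 on the same genes called 14.9% of those it gave an adjusted p, among them 0 aquaporin genes.

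DN10160 had 64.9, 53.9 and 63.4 normalised CPM after immersion, against 71.7, 95.7 and 120.2 normalised CPM in controls. The immersion libraries lay close together under the lowest control, and the controls were spread widely above them. The log2 fold change was -0.66 ± 0.21 (SE), a ratio of 0.634 with a 95% interval of 0.443 to 0.906, and edgeR's quasi-likelihood test gave an unadjusted p of 0.0208 and an adjusted p of 0.19. With Hymenoptera genes alone in the fit the log2 fold change was -0.69 ± 0.22 and the adjusted p 0.104. Without control 1 it was -0.76 ± 0.15 with an adjusted p of 0.00608, in a fit that called 65.5% of all genes and in which the treatment and the worm-matched reads part the libraries alike. Against control 1 alone, the control that shares those reads, the log2 fold change was -0.24 (edgeR adjusted p = 0.499). That p has no control replicate behind it: the spread comes from the immersion libraries and from controls 2 and 3, and control 1 is assumed to vary like them. The part of the worm-matched reads in the result was not tested.

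The other 6 tested genes had log2 fold changes between -0.28 and 0.17, with edgeR adjusted p of 0.321 to 0.944. Their intervals show how far a difference could reach at this spread. For DN7533 the ratio of immersion to control was 0.824, with a 95% interval of 0.607 to 1.12. For DN10708 it was 0.897 (0.626 to 1.28). The narrowest interval was that of DN9734_c0_g1, 1.02 (0.821 to 1.27). For DN2319, the least steady of the 7, the interval ran from 0.468 to 1.48 around a ratio of 0.833.

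**Figure D3:**
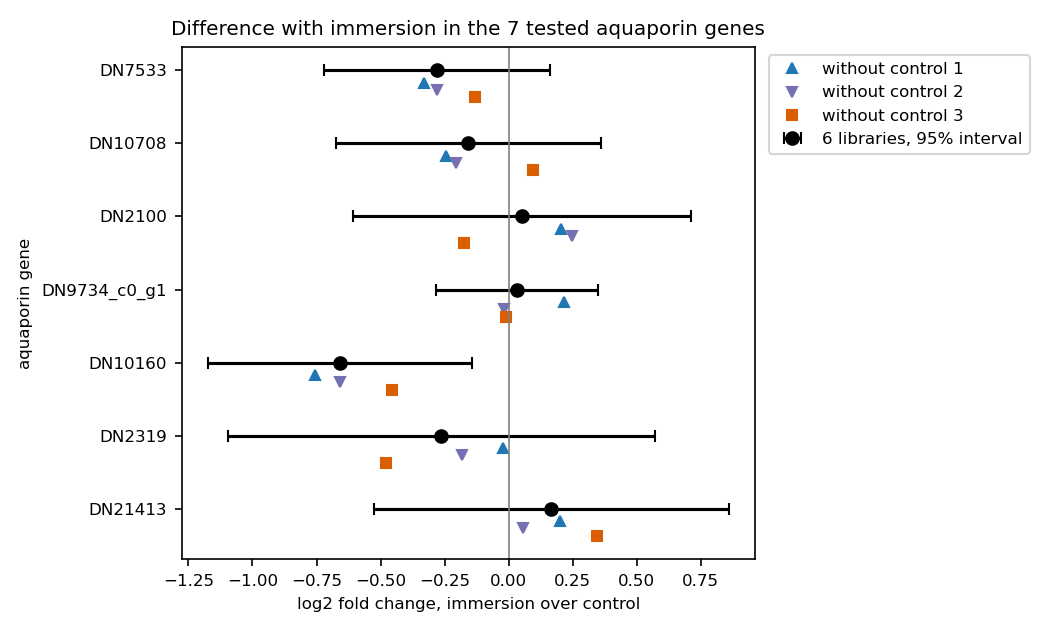
Log2 fold change of immersion over control (x axis) for each of the 7 tested aquaporin genes, with the 95% interval of edgeR's quasi-likelihood test (black) and the value without each control in turn (coloured). The interval of DN10160 alone lies to the left of 0. Leaving out control 3 moves DN10708, DN2100 and DN9734_c0_g1 to the other side of 0, and leaving out control 2 also moves DN9734_c0_g1.

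Over the 7 tested genes the median log2 fold change was -0.16, with 4 negative and 3 positive. In TPM, which also take up the lengths described below, all 7 had a lower mean after immersion, as had 49.3% of the tested Hymenoptera genes. In normalised counts the median over all tested genes was 0.20, and over the Hymenoptera genes 0.04. The median absolute log2 fold change was 0.17 in the aquaporin genes, against 0.59 over all tested genes and 0.47 over the Hymenoptera genes. The direction of DN10708, DN2100 and DN9734_c0_g1 turned without control 3. Without that library their log2 fold changes were 0.094, -0.18 and -0.013, against -0.16, 0.053 and 0.031 with all 6 libraries. DN9734_c0_g1 also turned without control 2, at -0.017, and without immersion 2, at -0.0009.

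Control 3 set DN2100 apart from DN7533, DN10708 and DN10160. DN2100 had 156.5, 198.7 and 198.0 normalised CPM after immersion, against 197.4, 221.5 and 114.4 normalised CPM in controls 1, 2 and 3. Control 3 was thus the lowest library for DN2100, while it was the highest for DN7533, DN10708 and DN10160. DN9734_c0_g1, which is also abundant, did not rise there either, with 166.85, 134.75 and 134.98 normalised CPM in controls 1, 2 and 3. The ratio of DN7533 to DN2100 in TPM was 2.55 to 3.61 after immersion and 2.77, 2.87 and 5.07 in controls 1, 2 and 3. Over the 6 libraries, the log2 normalised CPM of DN7533 had a Pearson's r of 0.791 with DN10708 and 0.804 with DN10160. With DN2100 the r was -0.587 and with DN9734_c0_g1 -0.526. Such r can also take up the depth that all genes of a library share, and the split of controls 2 and 3 from the other libraries. In 6 of the 7 tested genes the spread was wider among controls than among immersion libraries, with median SDs of 0.151 (log2) after immersion and 0.369 in controls. The same held in 85.4% of the Hymenoptera genes.

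Counts and TPM did not tell the same story for every member. A gene's counts divided by its TPM, scaled by the median of that quantity per base over Hymenoptera genes in the same library, give an effective length of the transcripts to which its reads were assigned. This length can move between libraries without a change of transcripts, as in the fragment DN9734_c0_g2, whose single transcript had 91.08 to 94.1 bases after immersion and 86.35 to 87.93 bases in controls. For DN10160 this implied length was 2713 to 2751 bases after immersion and 2680 to 2693 bases in controls, close to its assembled length of 2772 bases, and the difference showed in counts and TPM alike. For DN9734_c0_g1 it was 3005, 3227 and 3119 bases after immersion, against 2907, 2682 and 2580 bases in controls. Its implied length was on average 14.5% longer after immersion. Its TPM were lower in every immersion library, while its normalised CPM averaged 148.7 ± 8.16 after immersion and 145.5 ± 18.5 in controls (SD, n = 3 each).

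DN2100, with 20 assembled transcripts, had 2985, 3024 and 3011 bases after immersion, against 2909, 2743 and 2109 bases in controls. Control 3 again stood apart, with both the fewest reads and the shortest implied length. Of the 7 tested members 4 had an implied length above every control in all immersion libraries, and in 2 of these, DN2100 and DN9734_c0_g1, the group means were more than 10% apart. Among 9230 Hymenoptera genes above 1 TPM in every library, 17.4% did not overlap in either direction, 13.2% had the immersion libraries above, and 5.38% did not overlap with means more than 10% apart. The assembly cannot say whether transcripts of a gene are splice forms, alleles or fragments, and no sequence was used here.

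**Figure D4:**
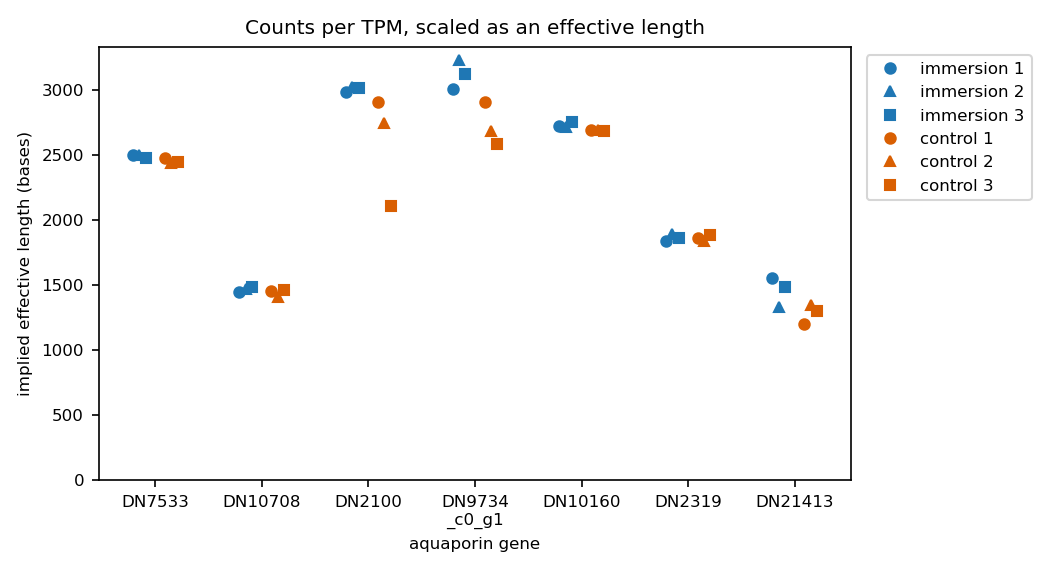
Implied effective length in bases (y axis, from 0) of the 7 tested aquaporin genes (x axis) in immersion libraries (blue) and control libraries (orange). DN2100 stands at 2109 bases in control 3, against 2743 to 3024 bases in the other libraries, and DN9734_c0_g1 is longer in all immersion libraries.

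The genes whose pattern over the 6 libraries was most like each member were looked up among 7209 Hymenoptera genes with a mean of at least 10 normalised CPM, by Pearson's r of log2 normalised CPM. For DN10160 they included E(bx) (TRINITY_DN983_c1_g1), the large subunit of a nucleosome remodelling factor, with r = 0.999. As many as 1169 genes had an r over 0.95 with DN10160, so its profile was a common one. For DN7533 there were 43 such genes, led by a UDP-glucuronosyltransferase (TRINITY_DN3077_c0_g1, r = 0.994), an enzyme class that conjugates sugars to small molecules. For DN9734_c0_g1 there were 2, of which the nearest was xanthine dehydrogenase (TRINITY_DN841_c0_g1, r = 0.964), an enzyme of uric acid synthesis. DN2100 had 10, with a calcium-independent phospholipase A2 (TRINITY_DN2880_c0_g1, r = 0.976) at their head, and DN10708 had 83, led by the nuclear pore protein Tpr (TRINITY_DN3282_c0_g2, r = 0.994). The nearest to DN2319 was a gene described as centrosomal protein of 78 kDa (TRINITY_DN2659_c0_g1, r = 0.989), 1 of 7 over 0.95. DN21413 had 6, led by PDSS1 (TRINITY_DN3789_c0_g1, r = 0.982), a subunit of an enzyme of ubiquinone synthesis.

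Water follows ions and solutes, so a list of genes named for ion pumps, exchangers, cotransporters, a potassium channel, carbonic anhydrases, hormones and their receptors, and glycerol enzymes was read beside the aquaporins. This water balance list, matched by words in the descriptions and Swiss-Prot matches, held 74 Hymenoptera genes, of which 65 were tested. It also holds 2 rows of the MIP gene big brain and a gene described as a kinase-interacting protein (TRINITY_DN12194_c0_g1) with a carbonic anhydrase as its Swiss-Prot match. Its word for glycerol kinase also caught 7 kinases of acylglycerols, which are lipid signalling enzymes, and without them 58 genes were tested. Of the 65, 0 had an adjusted p under 0.05. At an unadjusted p under 0.05 there were 23 lower and 1 higher, or 20 lower and 1 higher without the lipid kinases, where 17.5% of Hymenoptera genes were lower and 10.2% higher. The median log2 fold change of the 65 was -0.18, against -0.16 in the aquaporin genes and 0.04 over the Hymenoptera genes.

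The list did not move as a block. The 9 tested diuretic hormone, capa, ion transport peptide and cardioacceleratory peptide genes, named for such peptides or their receptors, had a median log2 fold change of -0.41. At an unadjusted p under 0.05, 4 of them were lower and 0 higher. The 4 were the diuretic hormone receptor-like TRINITY_DN1435_c0_g1, the capa receptor-like TRINITY_DN23961_c1_g2 and the ion transport peptide-like TRINITY_DN7803_c0_g1 and TRINITY_DN8646_c0_g2. The 5 chloride cotransporters had a median of -0.45, with 3 lower and 0 higher. The 17 genes named for the V-type proton pump, which energises secretion in the Malpighian tubule, had a median of 0.21, with 3 lower and 0 higher at that p. The 6 genes named for the sodium pump had a median of -0.17, with 2 lower.

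By the smallest p, 4 genes of the list were singled out, all with an edgeR adjusted p of 0.163. A glycerol kinase (TRINITY_DN3744_c0_g2), which phosphorylates the glycerol that aquaglyceroporins let through, had 52.9, 57.3 and 46.3 normalised CPM after immersion, against 102.6, 83.2 and 92.6 normalised CPM in controls (log2 fold change -0.83 ± 0.14 SE). A carbonic anhydrase (TRINITY_DN9572_c0_g1), which makes bicarbonate and protons from carbon dioxide, averaged 68.9 ± 9.64 normalised CPM after immersion and 178 ± 45.1 in controls (SD, n = 3 each). A diuretic hormone receptor-like gene (TRINITY_DN1435_c0_g1) averaged 22.2 ± 3.25 and a sodium pump beta subunit, nrv2 (TRINITY_DN3541_c1_g1), 132 ± 13.2 normalised CPM after immersion, while in controls the averages were 55.9 ± 13.0 for the receptor and 256 ± 45.4 for nrv2. In each of the 4 every immersion library lay below every control, as in 22.7% of the Hymenoptera genes. For the carbonic anhydrase, the receptor and TRINITY_DN3541_c1_g1, control 1 was the lowest control, at 131.1, 42.15 and 208.8 normalised CPM. Other rows named nrv2, TRINITY_DN6114_c0_g1 and TRINITY_DN4936_c0_g1, had log2 fold changes of 0.049 and 0.11. They too are named after their values were seen. A second glycerol kinase, Gk (TRINITY_DN2890_c0_g1), was the 1 gene of the list that was higher at an unadjusted p under 0.05, with a log2 fold change of 0.38 and an edgeR adjusted p of 0.209. It is named here after its value was seen.

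The neurogenic gene big brain (TRINITY_DN50_c1_g1), a member of the MIP family that in Drosophila is needed for the choice between neural and epidermal fate, is in the water balance list and falls outside the rule for the aquaporin genes. It had 1.43, 1.73 and 2.08 TPM after immersion, against 1.5, 2.21 and 2.74 TPM in controls, below each of the 6 most abundant aquaporins in every library. The groups overlapped, and its log2 fold change was -0.25 ± 0.45 (SE, edgeR adjusted p = 0.78). The other big brain row, TRINITY_DN50_c1_g3, belongs to the same assembly component, so reads of 1 gene may be divided between both. It had 2.89, 3.69 and 4.56 TPM after immersion, against 3.16, 3.94 and 4.77 TPM in controls. Its log2 fold change was -0.18 ± 0.51 (SE, edgeR adjusted p = 0.879).

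Markers of tissues in which aquaporins are known also differed between libraries. The Malpighian tubule list includes the 17 tested V-type proton pump genes and the inward rectifier potassium channel of the water balance list. Those lists are therefore not separate results. Of 38 Malpighian tubule genes 1 was listed at 0 in all libraries. Their TPM summed to 8379 to 9213 after immersion and to 9130 to 11490 in controls. Fat body markers, 18 genes with 0 at zero throughout, summed to 7213 to 8730 TPM after immersion and to 6846, 11820 and 31340 TPM in controls 1, 2 and 3. Gut markers, 27 genes, summed to 10390 to 11240 TPM after immersion and to 8809, 13650 and 12750 TPM in controls. Muscle markers, 50 genes, summed to 18210 to 31030 TPM after immersion and to 24430 to 25050 TPM in controls. Markers of nervous system and eye, 39 genes, summed to 1274 to 1352 TPM after immersion and to 1441 to 1789 TPM in controls, and gonad markers, 19 genes, to 589.7 to 651.4 TPM after immersion and 475.6 to 786.8 TPM in controls. Controls 2 and 3 were the highest libraries in every one of these lists except muscle, as they were in DN10160. At an unadjusted p under 0.05, 17.5% of the Hymenoptera genes were lower and 10.2% higher. In the lists 15 of 35 tested tubule genes were lower, 19 of 45 for muscle and 13 of 36 for nervous system and eye. For fat body it was 7 of 18, for gut 2 of 22 and for gonads 1 of 14. Higher at that p were 1 muscle and 1 gonad gene, and 0 in the other lists. Median log2 fold changes were -0.78 in muscle, -0.34 in nervous system and eye, -0.32 in tubule and -0.22 in fat body. They were 0.05 in gut and 0.06 in gonads. The 17 V-type proton pump genes within the tubule list had a median of 0.21, with 3 lower. The part of tissue make-up in the differences of the aquaporin genes was not tested.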

How the data were processed

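The table lists genes of what their Trinity-style identifiers mark as a de novo assembly, with a length, annotations and 2 values per library. The authors deposited estimated counts, which are not all whole, and TPM that sum to between 999511 and 999590 per library. Cutadapt 1.9, Salmon and edgeR appear in the submitters' processing notes, with no role stated. The index and the annotation cutoffs are not stated there. Reads of paralogs or alleles can be divided between assembled genes.

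After rounding, estimated counts went into the quasi-likelihood test of edgeR 4.0.16 under R 4.3.3. The settings were filterByExpr, TMM, estimateDisp, glmQLFit and glmQLFTest, two-sided, with treatment as the only term, Benjamini-Hochberg adjustment over all tested genes and a threshold of 0.05. Intervals of fold changes are 95%, from the standard error and degrees of freedom of that test. On simulated counts over 16931 genes, that test recovered 93 of 100 genes changed 4-fold and 69 of 100 changed 2-fold, with 9 false calls. The simulated counts had a single dispersion for all genes and both groups, and no worm-matched split of the controls. In the data the median SD (log2) of the Hymenoptera genes was 0.117 after immersion and 0.348 in controls. The recovered shares therefore do not give the power of the real comparison. Alternatives used DESeq2 1.42.0 and limma 3.58.1. All aquaporin genes are named, with the 4 smallest p of the water balance list and, for each tested gene, the nearest pattern of 2 looked up. For DN10160 the other of these is named in its place, and the nearest is not reported here. The members and lists were chosen with earlier results of these data known.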

Additional observations from a re-analysis of the deposited data

How the results depend on the processing

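DN10160 and DN2319 kept a negative log2 fold change under all 18 alternatives, with -0.87 to -0.24 for DN10160 and -0.56 to -0.016 for DN2319. DN10160 passed the threshold in 2 of them, both without control 1, and its adjusted p otherwise stayed at or above 0.0639 (DESeq2). Over all genes the number of calls, 0 as reported, was 2594 with DESeq2, 3068 in edgeR with legacy = FALSE, 2259 with a term for the worm-matched reads, 28 with length trends removed among Hymenoptera genes alone, and 31 and 3966 in limma on log2 TPM with 0.1 and 1 added. The term sets immersion against control 1 alone, so its values rest on 1 control library. The number was 0 to 12559 with 1 library left out, the highest without control 1 and 0 in the other 5 cases. With Hymenoptera genes alone it was 4912 without control 1 and 362 without control 3.

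Aquaporin genes called numbered 0 to 1 with 1 library left out, and 1 among Hymenoptera genes alone without control 1, DN10160 in each case. At an unadjusted p under 0.05 there were 0 to 1 with 1 library left out, 0 with the term for worm-matched reads, and 2 among Hymenoptera genes alone without control 1. The median log2 fold change of the tested aquaporin genes ranged from -0.18 to -0.016 with 1 library left out. It was -0.0079 with no filter, which adds the fragment DN9734_c0_g2, and 0.086 with length trends removed among Hymenoptera genes alone. Water balance genes called, 0 as reported, numbered 15 with DESeq2, 9 with legacy = FALSE, 6 in limma with 1 added and 3 with the term for worm-matched reads. They numbered 0 to 35 with 1 library left out, the highest without control 1, and 30 and 5 among Hymenoptera genes alone without control 1 and control 3.

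The small log2 fold changes turned in sign, with none past the threshold, and the cause was not tested. With the term for worm-matched reads they were 0.0064 for DN7533, 0.23 for DN10708, -0.10 for DN2100 and -0.17 for DN9734_c0_g1. In limma on log2 TPM, with 0.1 and 1 added, DN2100 had -0.16 in both, DN9734_c0_g1 -0.19 in both, and DN21413 -0.037 and -0.035. Length trends removed among Hymenoptera genes alone gave DN10708 0.086. With 1 library left out DN10708 ranged from -0.24 to 0.094, DN2100 from -0.18 to 0.25 and DN9734_c0_g1 from -0.017 to 0.21. Among Hymenoptera genes alone without control 3 they had 0.083, -0.19 and -0.019.

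The groups share replicate numbers. Deviations from the group means of same-numbered libraries had correlations of -0.039, -0.122 and 0.195, and not every library correlated best with its own number, so the numbers were not taken as pairs. With the replicate block edgeR called 0 genes, and DN10160 had a log2 fold change of -0.63 with an adjusted p of 0.249. The legacy = FALSE fit and the fits of Hymenoptera genes without 1 control were chosen after seeing the data. The median log2 fold change over all genes moved between 0.01 and 0.64 with the setting, and over Hymenoptera genes between -0.01 and 0.15. Depth limits DN9734_c0_g2, which has at most 9.82 counts in a library, and intervals cover the spread between 3 libraries a group.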

Other observations

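Besides the 8 bee genes, 16 rows of the table are described as aquaporins of other organisms, and 6 of these were listed at 0 in all libraries. The other 10 were listed at 0 in controls 2 and 3, and each was above 0 in control 1. Their best Swiss-Prot matches are plant aquaporins of the PIP and TIP subfamilies for 12 of the 16, although the descriptions name the nematode Trichinella or the carp Cyprinus for most. The plant-matched rows summed to 12.6, 30.2 and 33.3 TPM after immersion, against 48.0 TPM in control 1. The 2 rows matching Caenorhabditis summed to 8.26 to 10.6 TPM after immersion, against 2.99 TPM in control 1. The 2 rows matching a mammal summed to 2.72 to 8.07 TPM after immersion, against 23.1 TPM in control 1. Control 1 thus held more of the mammal-matched and less of the worm-matched aquaporins than any immersion library. A search of the table by the word aquaporin alone would set 29.4 to 51.8 TPM of these rows after immersion against 74.1, 0 and 0 TPM in controls 1, 2 and 3. The 8 bee genes had reads in all 6 libraries.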
